A study of Mus musculus with 24 samples.

Results

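The genes described here are the contractile, calcium-handling and energy genes of fast skeletal muscle, as they were measured in whole back skin of mice. A list of 33 gene symbols was matched to the exon rows of the deposited count table, which holds 29758 symbols, and all 33 were found. For 2 of the 33, the table had more than 1 exon row and the row with the highest total count was kept. The mice were wild-type C57BL/6NCrl males aged 8 weeks (about day 54), in telogen, the resting phase of the hair cycle, under 12 h of light and 12 h of darkness. Food was offered for 18 to 21 days in a single daily window, counted in zeitgeber time (ZT, hours after lights on). The window ran from ZT0 to ZT4 in group ED, from ZT5 to ZT9 in group MD and from ZT12 to ZT16 in group EN. Each group had 8 RNA libraries, 1 every 4 h between ZT0 and ZT28, and a library is named here by its group and time, so that MD00 is the MD library at ZT0. Each library held RNA pooled from 2 to 4 animals, no group had a freely fed control, and no group had more than 1 pool at a time. The labels do not say whether different pools came from separate animals, and the p-values therefore cover only how these pools vary.

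Skeletal muscle contracts when myosin thick filaments pull on actin thin filaments inside the sarcomere, the repeating unit bounded by Z discs. A nerve impulse opens the calcium release channel of the sarcoplasmic reticulum, calcium binds troponin on the thin filament, and a calcium pump ends the contraction. Fast fibres carry their own isoforms of myosin, troponin, calcium pump and calsequestrin, and slow fibres carry others. Mouse back skin has a thin sheet of skeletal muscle beneath the dermal fat, the panniculus carnosus, which is made mostly of fast fibres, and a full-thickness skin sample includes it. In RNA from whole tissue, fewer muscle cells and less RNA per muscle cell cannot be told apart.

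As a description of the genes themselves, the sequences before their transcription starts were searched for short motifs of muscle promoters. The RefSeq promoter table (GRCm38.p6, the sequence of build mm10) held 26 windows for 24 of the 33 genes, each of 300 bases from 250 before the start to 50 after it. The E-box CANNTG, bound by the MyoD family, was in 19 of the 26 windows on either strand and in 72.3% of all 32851 windows in the table. Its form CAGCTG was in 13 of the 26 windows and in 16.3% of all. The MEF2 motif, bound by the MEF2 factors of muscle, was found in 4 windows (Myh1, Myh4, Pvalb and Ttn) against 3.19% of all, and the CArG box of serum response factor in 4 windows of 3 genes (Acta1, Ldb3 and Myh4) against 1.63%. TATAAA was in 5 windows (Acta1, Myh1, Myh2, Myh4 and Myl1) and in 13.6% of all, and a MEF2 match can hold a TATAAA on the other strand. A match is a description of the letters and not of binding. The 250 bases before the start are printed below, 5′ to 3′ on the strand of the gene, for 4 genes: a fast myosin, skeletal actin, titin and parvalbumin. All 4 printed windows hold a MEF2 or CArG match, which most of the 24 genes lack. Pvalb has another window in the table, not printed here, with neither match. Capitals mark MEF2 and CArG matches.
Myh4, chr11:67237562-67237811, plus strand: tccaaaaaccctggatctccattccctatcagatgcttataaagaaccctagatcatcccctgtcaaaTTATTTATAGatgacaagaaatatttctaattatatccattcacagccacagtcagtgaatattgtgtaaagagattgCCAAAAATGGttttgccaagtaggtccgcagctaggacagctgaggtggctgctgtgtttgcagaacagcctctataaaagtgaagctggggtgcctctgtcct
Acta1, chr8:123894776-123895025, minus strand: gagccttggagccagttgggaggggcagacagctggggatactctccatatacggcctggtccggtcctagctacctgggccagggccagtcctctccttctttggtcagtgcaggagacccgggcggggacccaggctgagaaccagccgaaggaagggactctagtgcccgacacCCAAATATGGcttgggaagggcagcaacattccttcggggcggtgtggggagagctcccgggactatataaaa
Ttn, chr2:76982548-76982797, minus strand: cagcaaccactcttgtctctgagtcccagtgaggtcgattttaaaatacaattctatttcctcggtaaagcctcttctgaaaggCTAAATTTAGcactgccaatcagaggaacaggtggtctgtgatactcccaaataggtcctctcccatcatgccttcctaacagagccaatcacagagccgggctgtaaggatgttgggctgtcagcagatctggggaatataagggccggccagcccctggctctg
Pvalb, chr15:78206401-78206650, minus strand: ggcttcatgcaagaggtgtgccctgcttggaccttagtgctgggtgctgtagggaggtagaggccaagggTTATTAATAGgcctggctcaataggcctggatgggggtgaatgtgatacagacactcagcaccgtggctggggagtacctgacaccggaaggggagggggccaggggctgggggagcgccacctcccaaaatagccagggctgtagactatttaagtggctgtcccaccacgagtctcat

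Exon counts over the rows used summed to 13091637 to 20904365 per library in ED, 16400748 to 22395991 in MD and 13617114 to 26052550 in EN. The labels give each library a code from L1 to L8 without saying what it is, and only 2 codes held pools of more than 1 group. MD pools carried codes L1 to L3, ED pools L3 to L6 and EN pools L6 to L8. A difference of MD from EN therefore cannot be told apart from a difference between codes. The same holds for MD and ED outside L3. Pools ED24 and EN00 stood apart by hair keratin genes, at sums, in CPM (counts scaled to a fixed library total), of 629 and 1367 CPM against group medians of 7.17 and 6.79. All 33 genes passed the low-count filter, through which 15719 genes were tested. Levels of single genes are in CPM scaled by TMM, a method that corrects for library composition, and so is the sum over the 33 genes, while sums over other lists are CPM without that scaling.

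The 33 genes took a larger share of the exon counts in MD than in most pools of the other groups. Their share was 6.68% to 9.54% (median 8.78%) in MD, 3.09% to 7.78% (median 4.58%) in ED and 3.69% to 8.08% (median 5.21%) in EN, with 8 pools each. The lowest MD pool was MD00 at 6.68% (95% Wilson interval 6.67% to 6.69%), and the highest was MD24 at 9.54% (95% Wilson interval 9.53% to 9.55%). In ED the share reached 7.78% (95% Wilson interval 7.76% to 7.79%) in ED28, and in EN it reached 8.08% (95% Wilson interval 8.07% to 8.09%) in EN04, so both groups overlapped with MD through these pools. The lowest pools were ED20 at 3.09% (95% Wilson interval 3.08% to 3.09%) and EN08 at 3.69% (95% Wilson interval 3.68% to 3.69%). These intervals cover counting error only and are far narrower than the spread between pools. Titin alone (Ttn, the giant spring protein of the sarcomere) supplied 46.0% to 62.0% of these counts, since a long transcript collects more reads. Without Ttn, the summed level ran from 23964 to 42513 CPM in MD, from 13747 to 39645 in ED and from 17384 to 40310.0 in EN.

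**Figure D1:**
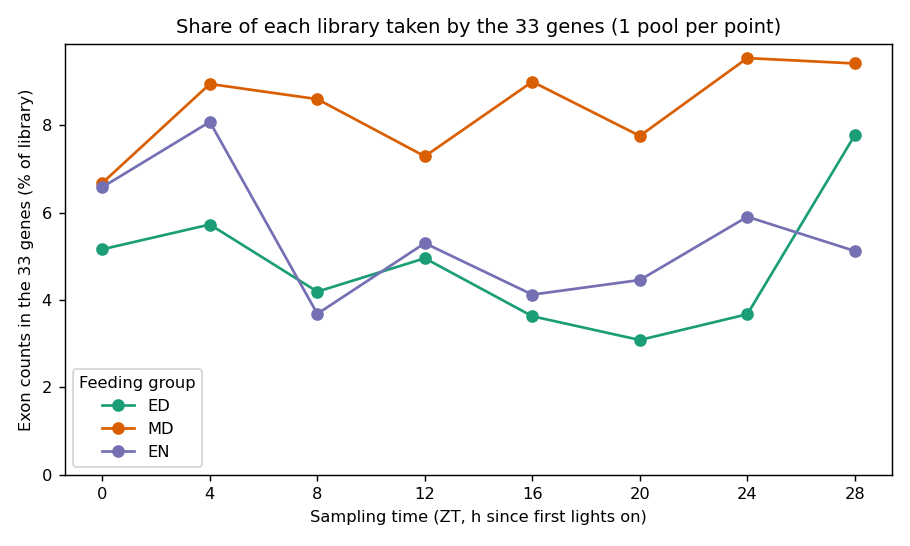
Share of each library's exon counts (y axis, %) taken by the 33 genes against sampling time (x axis, ZT in h), 1 pool per point and 1 line per feeding group. The MD line is above the other groups at all 8 times, by little at ZT0, where MD00 has 6.68% and EN00 6.59%.

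The question behind the main comparison is whether the mean level over the day differs between mice fed at mid-day and mice fed at lights on or lights off. Of the 33 genes, 29 were higher in MD than in ED and 0 were lower, at a median difference of 0.79 on the log2 scale, with a range of 0.16 to 1.20. Of all 15719 genes tested, 11.2% were higher and 11.8% lower in this comparison (23% in all), and their median difference was -0.01. Against EN, 19 of the 33 genes were higher in MD and 0 lower, at a median of 0.51 and a range of -0.06 to 1.03. The background there was 14.4% higher and 15.9% lower (30.2% in all), with a median over all genes of 0.0049. Both comparisons use the same MD pools, which share no code with EN and only L3 with ED. The test was edgeR's quasi-likelihood test on a model with a mean and a 24 h cosine curve for each group, with Benjamini-Hochberg adjustment over all genes tested and a threshold of 0.05. The 4 genes that did not pass in MD against ED were Mylpf, Myl1, Pvalb and Ampd1. Of the 33 genes, none had all MD pools above all ED pools, and 1 (Myot) had all MD pools above all EN pools, against 0.585% and 1.76% of all genes tested.

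**Figure D2:**
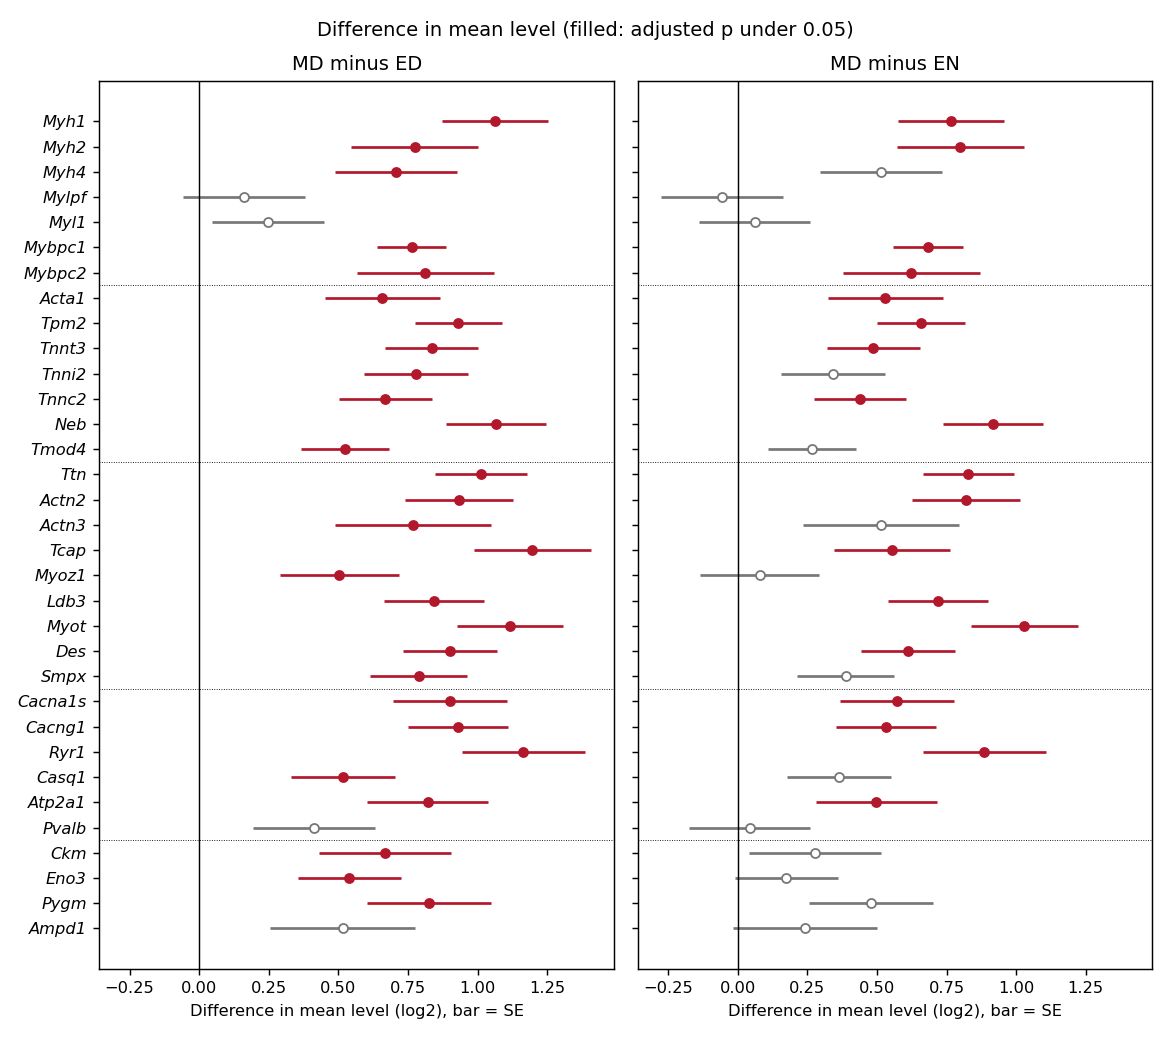
Difference in mean level between groups (x axis, log2) with its standard error for each gene (y axis), ordered by role with dotted lines between roles. Filled red points passed the threshold, 29 in MD minus ED and 19 in MD minus EN, and in MD minus ED the 4 open points are Mylpf, Myl1, Pvalb and Ampd1, at 0.16 to 0.52.

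Of the 7 thick filament genes, which include the motor itself, 5 were higher in MD than in ED and 4 were higher than in EN. Myh4 encodes the myosin heavy chain of the fastest fibres, type 2B (chromosome 11, 67238029 to 67260446, plus strand, build mm10). In order of sampling time from ZT0 to ZT28, the order used for all pool values below, Myh4 was at 3848, 7866, 5929, 6060.5, 8194, 6194, 6894 and 7475 CPM in MD. It was at 4443, 4942, 3462, 4164, 3554, 2831, 3231 and 8179.9 in ED and at 6743, 8330.3, 2987, 4558, 3648, 4043, 5372 and 4839 in EN. MD00 was the lowest MD pool, while ED28 and EN04 reached the upper end of MD and 1 of 8 MD pools was above every ED pool. The difference was 0.71 (SE 0.22, adjusted p = 0.012) against ED and 0.51 (SE 0.22, adjusted p = 0.05) against EN, which did not pass.

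Myh1, the heavy chain of type 2X fibres (chromosome 11, 67200052 to 67224575, plus strand), was at 1999.7, 1412, 2369, 1082, 1311, 1419, 1483 and 1140.0 CPM in MD. Its ED pools were at 757, 899.6, 615, 703, 677, 445, 669 and 1224 and its EN pools at 1169, 1277, 671, 765, 772, 820.1, 976 and 827. Here MD00 was not low: it was the second highest of all 24 pools after MD08. Myh1 was 2.09-fold higher in MD than in ED, a log2 difference of 1.06 (SE 0.19, adjusted p = 0.000178), and 1.70-fold higher than in EN, 0.77 (SE 0.19, adjusted p = 0.0013). Myh2, the heavy chain of type 2A fibres (chromosome 11, 67171027 to 67197517, plus strand), was at 285, 385, 307, 363, 420.0, 229.8, 440.2 and 314 CPM in MD. It was at 193, 269, 159, 237, 176, 118, 185 and 423 in ED and 266, 371, 151, 209, 145, 168, 227 and 178 in EN, with MD20 low and ED28 high for their groups. The log2 difference was 0.77 (SE 0.23, adjusted p = 0.0081) from ED and 0.80 (SE 0.23, adjusted p = 0.0041) from EN.

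The balance of these myosins was compared as shares of their summed counts, which do not move with the amount of muscle in a pool. Myh4 made up 79.1% to 83.4% in ED, 78.4% to 83.5% in EN and 62.7% to 83.7% in MD. Pools MD00 and MD08 stood apart, with Myh1 shares of 32.6% (95% Wilson interval 32.4% to 32.9%) and 27.5% (27.3% to 27.8%), against 12.5% to 18.1% in the other 22 pools. The mean Myh1 share was 18.8% ± 7.33 (SD, n = 8) in MD, 14.3% ± 1.24 in ED and 15.1% ± 1.67 in EN. The Myh2 share was 2.93% to 4.99% in MD, 3.49% to 4.63% in ED and 3.05% to 3.96% in EN. None of the 9 comparisons of a share passed a two-sided exact permutation test in which the labels of a pair of groups were swapped at each time in every combination (adjusted p from 0.21 to 0.98 over the 9, where the smallest raw p the swaps allow is 0.0078). The smallest raw p in this exact permutation test was 0.023, for the Myh2 share, which had a mean of 3.47% in EN and 4.08% in ED and was lower in EN at 7 of 8 times.

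Mybpc1, a myosin-binding protein C found in slow and fast fibres (chromosome 10, 88518279 to 88605152, minus strand), was at 405, 343, 392, 261, 309, 275, 336 and 299 CPM in MD. It was at 189, 228, 172, 182, 173, 160.2, 174 and 281 in ED and 240.0, 285, 169.6, 197, 184, 177, 207 and 180.2 in EN. As with Myh1, MD00 and MD08 were the highest pools, and 6 of 8 MD pools were above every ED pool. The log2 difference was 0.76 (SE 0.13, adjusted p = 0.000112) from ED and 0.68 (SE 0.13, adjusted p = 0.000173) from EN. The fast isoform Mybpc2 ran 359 to 977 (median 812) in MD, 269.8 to 958 (median 446) in ED and 327 to 858 (median 549) in EN, at 0.81 (SE 0.25, adjusted p = 0.0071) and 0.62 (SE 0.25, adjusted p = 0.025). The fast light chains, which sit on the myosin neck, did not pass in either comparison. Mylpf, the phosphorylatable light chain, ran 502 to 1363 (median 1159.7) in MD and 557 to 1529 (median 1001) in ED, at 0.16 (SE 0.22, adjusted p = 0.58), and differed from EN by -0.06 (SE 0.22, adjusted p = 0.83). Myl1, the essential light chain, differed from ED by 0.25 (SE 0.20, adjusted p = 0.32) and from EN by 0.06 (SE 0.20, adjusted p = 0.88).

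All 7 thin filament genes were higher in MD than in ED, and 5 of 7 were higher than in EN. Acta1, skeletal muscle actin (chromosome 8, 123891769 to 123894751, minus strand), was at 2464, 3748, 4722, 3657, 4799, 3529, 4636 and 4715 CPM in MD. It was at 2891, 3106, 2293, 3239, 2205, 1429, 2113 and 4887 in ED and 3855, 4381, 1790.2, 2796, 2263, 2613, 3428 and 3167 in EN. ED28 was the highest of all 24 pools, so that no MD pool was above every ED pool, and 4 of 8 MD pools were above every EN pool. The log2 difference was 0.66 (SE 0.21, adjusted p = 0.013) from ED and 0.53 (SE 0.21, adjusted p = 0.03) from EN. Neb, nebulin, a giant protein along the thin filament, ran 3114 to 4638 (median 3954) CPM in MD, 1309.7 to 3218 (median 1771) in ED and 1412 to 3586 (median 1959) in EN, and 7 of 8 MD pools were above every ED pool. Neb was 2.09-fold and 1.89-fold higher in MD, log2 differences of 1.07 (SE 0.18, adjusted p = 0.00015) and 0.92 (SE 0.18, adjusted p = 0.000398).

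Tpm2, beta tropomyosin, which lies along actin, ran 952 to 1315 (median 1129.9) CPM in MD, 386 to 983 (median 650.4) in ED and 513 to 1099 (median 766) in EN. Its log2 difference was 0.93 (SE 0.16, adjusted p = 0.000148) from ED and 0.66 (SE 0.16, adjusted p = 0.0017) from EN. Tnnt3, the fast troponin subunit that binds tropomyosin, ran 1375 to 2192 (median 1788) in MD, 628 to 1512 (median 1095) in ED and 851 to 2015 (median 1372) in EN, with MD00 lowest in its group, and ED28 and 4 EN pools above it. It differed by 0.83 (SE 0.17, adjusted p = 0.000582) and 0.49 (SE 0.17, adjusted p = 0.022). The fast inhibitory subunit Tnni2 differed by 0.78 (SE 0.19, adjusted p = 0.0019) from ED, and from EN by 0.34 (SE 0.19, adjusted p = 0.13), which did not pass. For the fast calcium-binding subunit Tnnc2 the differences were 0.67 (adjusted p = 0.0026) and 0.44 (adjusted p = 0.03). Tmod4, which caps the pointed end of the thin filament, differed by 0.52 from ED (adjusted p = 0.0097) and by 0.27 from EN (adjusted p = 0.17).

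All 9 genes of the Z disc and cytoskeleton were higher in MD than in ED, and 6 of 9 were higher than in EN. Ttn (chromosome 2, 76703980 to 76982547, minus strand) was at 39091, 49741, 50519.7, 37961, 48539.9, 41576, 50197 and 51736 CPM in MD. It was at 25091, 29369, 21944, 24766, 18518, 16184, 17835 and 39769.6 in ED and 33054, 41917, 19077, 28518, 21337, 21746, 29053 and 23881 in EN. The MD pools lay close together, with 6 of 8 above every ED pool and 5 of 8 above every EN pool. Ttn was 2.02-fold higher than in ED and 1.77-fold higher than in EN, log2 differences of 1.01 (SE 0.16, adjusted p = 0.000246) and 0.83 (SE 0.16, adjusted p = 0.000891). Des, desmin, the intermediate filament that ties Z discs together and is also made in smooth muscle (chromosome 1, 75360329 to 75368579, plus strand), was at 529, 636, 715, 661, 843, 628, 816 and 865 CPM in MD. It was at 464, 413, 333, 434, 333, 251, 363 and 651 in ED and 530.1, 659.6, 329, 504, 394, 451, 497 and 538 in EN. ED28 and EN04 again fell inside the MD range, and the log2 difference was 0.90 (SE 0.17, adjusted p = 0.000314) from ED and 0.61 (SE 0.17, adjusted p = 0.0038) from EN.

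Myot, myotilin, which crosslinks actin at the Z disc, ran 136 to 221 (median 178) CPM in MD, 53.4 to 144 (median 82.7) in ED and 51.8 to 132 (median 86.7) in EN. Its lowest MD pool was above all EN pools and below only ED28 of the ED pools, and it was 2.17-fold and 2.04-fold higher in MD, log2 differences of 1.12 (SE 0.19, adjusted p = 0.000116) and 1.03 (SE 0.19, adjusted p = 0.00016). Tcap, telethonin, which joins titin to the Z disc, had the largest difference from ED of the 33 genes, 1.20 (SE 0.21, adjusted p = 0.000162), with 108 to 277 (median 208) CPM in MD and 43.4 to 115 (median 78.8) in ED. Its EN pools spread from 61.6 in EN24 to 216 in EN12, and the difference from EN was 0.55 (SE 0.21, adjusted p = 0.032). Actn2, the alpha actinin of all muscle fibres, ran 118 to 218 (median 164) in MD, 63.4 to 188 (median 89.4) in ED and 70.3 to 156 (median 99.0) in EN, at 0.93 (SE 0.19, adjusted p = 0.000682) and 0.82 (SE 0.19, adjusted p = 0.001). Actn3, the actinin of fast fibres, was higher than in ED by 0.77 (SE 0.28, adjusted p = 0.016), and its difference from EN of 0.51 (SE 0.28, adjusted p = 0.079) did not pass.

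Ldb3, also called ZASP or cypher, a Z disc scaffold, ran 94.1 to 158 (median 137) CPM in MD, 49.0 to 159 (median 73.8) in ED and 55.7 to 123 (median 85.7) in EN. Pools ED04 and ED28 of ED and 4 EN pools were above the lowest MD pool, and it differed by 0.84 (SE 0.18, adjusted p = 0.000877) and 0.72 (SE 0.18, adjusted p = 0.0015). Smpx, a small protein of muscle linkages, ran 36.7 to 59.4 (median 45.4) in MD, 15.95 to 47.1 (median 28.4) in ED and 23.6 to 52.5 (median 37.8) in EN, at 0.79 (SE 0.17, adjusted p = 0.0011) from ED, and at 0.39 (SE 0.17, adjusted p = 0.069) from EN, which did not pass. Myoz1, calsarcin-2, which holds calcineurin at the Z disc of fast fibres, was just past the threshold against ED at 0.50 (SE 0.21, adjusted p = 0.044), and differed from EN by 0.08 (SE 0.21, adjusted p = 0.78).

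Of the 6 calcium genes, 5 were higher in MD than in ED and 4 were higher than in EN. Atp2a1, the calcium pump SERCA1 of fast fibres (chromosome 7, 126445858 to 126463108, minus strand), was at 1696, 3282, 3361, 3944, 4295, 3208, 4003 and 3536 CPM in MD. It was at 2306, 2368, 1611, 2199, 1738, 1231, 1780.5 and 3879 in ED and 2978, 3489, 1569, 2705, 2075, 2236, 3138 and 2666 in EN. MD00 fell below most EN pools, and the log2 difference was 0.82 (SE 0.22, adjusted p = 0.0039) from ED and 0.50 (SE 0.22, adjusted p = 0.047) from EN. Pvalb, parvalbumin, a calcium buffer of the fastest fibres (chromosome 15, 78191114 to 78206400, minus strand), was at 381, 898, 1145, 1261, 1025, 997, 987 and 1101 CPM in MD. It was at 760.0, 787, 709.6, 1081, 572, 452, 734 and 1073 in ED and 1338, 1195, 643, 1117, 731, 815, 1106 and 1215 in EN. MD00 was the lowest of all 24 pools for Pvalb and the groups overlapped throughout, with differences of 0.41 (SE 0.22, adjusted p = 0.10) and 0.04 (SE 0.22, adjusted p = 0.88) that did not pass.

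Ryr1, the calcium release channel, ran 773 to 1679 (median 1387) CPM in MD, 410.1 to 1279.8 (median 577) in ED and 539 to 1177 (median 761) in EN. It was 2.24-fold higher in MD than in ED and 1.85-fold higher than in EN, log2 differences of 1.16 (SE 0.22, adjusted p = 0.000322) and 0.89 (SE 0.22, adjusted p = 0.0015). Subunits of the voltage sensor that opens it were also higher in both comparisons. Cacng1, its gamma subunit and the least abundant of the 33 genes, ran 7.45 to 14.5 (median 12.1) in MD, 3.17 to 10.2 (median 6.82) in ED and 5.96 to 10.6 (median 8.20) in EN, at 0.93 (SE 0.18, adjusted p = 0.000482) and 0.53 (SE 0.18, adjusted p = 0.013). Cacna1s, the pore subunit, differed by 0.90 (SE 0.21, adjusted p = 0.0013) and 0.57 (SE 0.21, adjusted p = 0.017). Casq1, the calcium store protein of fast fibres, was higher than in ED by 0.52 (SE 0.19, adjusted p = 0.024), and its difference from EN of 0.37 (SE 0.19, adjusted p = 0.082) did not pass.

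Of the 4 energy genes, 3 were higher in MD than in ED, at a median difference of 0.60. Against EN the median was 0.26, the lowest of the 5 roles, and 0 of 4 passed with edgeR or with DESeq2, while 1 (Pygm) had an unadjusted p under 0.05, against 40.7% of all genes tested. Ckm, muscle creatine kinase, which renews ATP from creatine phosphate (chromosome 7, 19404776 to 19422841, plus strand), was at 1174, 2298, 2499, 2675, 3129, 2596, 3069.5 and 3075 CPM in MD. It was at 1995, 1898, 1537, 2364, 1237, 849, 1409 and 2691 in ED and 2997, 2869, 1369.8, 2477, 1616, 1889.5, 2559 and 2424 in EN. MD00 was below all EN pools, and the log2 difference was 0.67 (SE 0.24, adjusted p = 0.02) from ED and 0.28 (SE 0.24, adjusted p = 0.31) from EN. Pygm, muscle glycogen phosphorylase, differed by 0.83 (SE 0.22, adjusted p = 0.0039) and 0.48 (SE 0.22, adjusted p = 0.061). Eno3, the glycolytic enolase of muscle, differed by 0.54 (SE 0.18, adjusted p = 0.019) and 0.17 (SE 0.18, adjusted p = 0.45). Ampd1, AMP deaminase, did not pass in either, at 0.52 (SE 0.26, adjusted p = 0.074) and 0.24 (SE 0.26, adjusted p = 0.41).

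Levels per transcript length were compared in the authors' RPKM values, which are labelled as made with the program cqn and matched in distribution between libraries, so that they show order more than amount. By the median over the 24 pools, Acta1 was highest at 1037 RPKM, followed by Ckm at 959, Myh4 at 746, Atp2a1 at 719.6 and Tnnt3 at 667. On this scale Ttn came only at rank 18 of the 33 genes, at 153 RPKM. Among the myosin heavy chains, Myh4 was followed by Myh1 at 191 and Myh2 at 45.1. Cacng1 was the lowest at 4.50. Neighbours in this order had overlapping ranges over the pools, as with Acta1 (795 to 1547) and Ckm (622 to 1133). Near-identical copies share reads among the myosin genes on chromosome 11, and the sources used here do not give how the counting treated such reads.

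How firm single calls were was read from fits without 1 pool each. Of the 29 genes higher in MD than in ED, 22 passed with every pool left out in turn, and 11 of the 19 higher than in EN did so. MD16 mattered most: without it the counts were 22 and 11. Without MD16, Acta1 (adjusted p = 0.071), Actn3 (0.086) and Myh4 (0.068) no longer passed against ED, nor did Casq1 (0.082), Ckm (0.075) or Eno3 (0.066), which were also lost without ED08 or without ED20. Myoz1 was lost with any of 15 pools left out (adjusted p up to 0.12). Against EN, Cacna1s (0.093) and Cacng1 (0.064) were lost without MD16. Mybpc2, Tnnt3 and Acta1 were lost without MD16, EN08, EN16 or EN20, at adjusted p up to 0.097, 0.088 and 0.12, and Acta1 also without MD08. Tcap and Tnnc2 were lost with any of 8 pools left out, and Atp2a1 with any of 17, at adjusted p up to 0.088, 0.12 and 0.13. In the other direction, leaving out MD00 raised the counts to 31 and 25. Leaving out MD00, ED28 and EN04 together, a choice made after seeing the data, also gave 31 and 25, and leaving out the hair keratin pools ED24 and EN00 gave 28 and 19. Without the second day (ZT24 and ZT28) the counts were 24 and 11. Calls over all genes tested moved as well in the fits without several pools. For the fits without 1 pool they are not given here, so those changes are not set against all genes. In the main fit, 1755 of 15719 genes were higher in MD than in ED and 2256 higher than in EN. Without the second day these were 1419 and 1595 of 15757. Without MD00, ED28 and EN04 they were 2056 and 2536 of 15735, and without ED24 and EN00 they were 1548 and 2240 of 15746. In the RPKM values, limma called 27 and 18 of the 33 genes higher, against 9.8% and 10.9% of all genes tested.

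Between EN and ED, none of the 33 genes passed with edgeR, and 0 of all 15719 genes tested did (0%), at a median difference over the 33 genes of 0.27 and a range of -0.03 to 0.64. At an unadjusted p under 0.05, 7 of the 33 were higher in EN: Tcap, Tnni2, Smpx, Tnnt3, Myoz1, Cacng1 and Eno3. Over all genes tested the share at that threshold was 6.11% in either direction. With DESeq2, 0 of the 33 and 6 of all genes (0.0382%) passed. The largest difference was that of Tcap, 0.64 (SE 0.21, adjusted p = 0.82), and the median over all genes tested was -0.0029. Within code L6, which held EN00, EN04 and ED28, 13 of 33 genes were higher in the mean of the EN pools than in ED28, at a median of -0.04 and a range of -0.43 to 0.38. Within code L3, which held MD24, MD28 and ED00, all 33 were higher in the mean of the MD pools than in ED00, at a median of 0.80 and a range of 0.34 to 1.25. These are values of 3 pools each, with no test.

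No rhythm over 24 h passed for any of the 33 genes with edgeR, in ED (background 0.719% of all genes tested), MD (0.942%) or EN (1.06%). At an unadjusted p under 0.05 there were 19 of the 33 genes in ED, 1 in MD and 4 in EN, against 14.9%, 15.7% and 10.8% of all genes tested. DESeq2 called 2 of the 33 in ED, against 2.57% of all genes with an adjusted p, and none in MD or EN. In ED the fitted peaks of all 33 genes fell between ZT4.6 and ZT7.3. Their amplitudes were 0.25 to 0.59 on the log2 scale around a median of 0.47, against 0.15 over all genes tested. The lowest ED pool was ED20 for all 33 genes and the highest was ED28 for 30 of them. The same counts over all genes tested are not given here. ED28 was above ED04, of the same clock time, by a median of 0.53. The genes varied together in ED (median Pearson r of 0.92 over pairs of genes), so these counts and peaks are not independent. The part of ED20 and ED28 in them was not tested. In MD the median amplitude was 0.15 and in EN 0.31, against 0.15 and 0.13 over all genes tested. The EN median was 0.54 without EN12, and the MD median was 0.25 without MD24 and 0.29 without the second day.

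Tcap, a gene known to be under clock control in skeletal muscle, had the smallest p in MD. It was at 187, 253, 254, 161, 115, 108, 228 and 277 CPM in MD. It was at 106, 84.9, 64.1, 101, 66.8, 43.4, 72.6 and 115 in ED and 115, 163, 111, 216, 132, 77.5, 61.6 and 90.8 in EN. In MD the pools at ZT16 and ZT20 were the lowest, and in EN the pool at ZT12 was the highest. The fit gave amplitude 0.70 (SE 0.21), peak at ZT5.24, adjusted p = 0.11 in MD, and amplitude 0.55 (SE 0.21), peak at ZT10.9, adjusted p = 0.30 in EN. A test of different rhythms between groups passed for 0 of 33 genes with edgeR in each of the 3 pairs (background 0.35% in MD against ED, 0.35% in MD against EN and 0.401% in EN against ED), and DESeq2 called 0 as well. At an unadjusted p under 0.05 the counts were 1, 3 and 0 of 33, against 11.7%, 12.7% and 11.6% of all genes tested. Tcap had the smallest p of the 33 in MD against EN, with adjusted p = 0.22.

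MD00 stood apart in MD for most of these genes. It was below all 7 other MD pools for 25 of the 33 genes, above all for 1 (Mybpc1) and inside their range for 7. Over all genes tested, MD00 was below all other MD pools for 21.4% and above all for 19.6%. The genes farthest below the median of the other MD pools were Pvalb (by -1.43 on the log2 scale), Actn3 (-1.42), Ampd1 (-1.35), Mybpc2 (-1.24), Mylpf (-1.21) and Ckm (-1.19). The 7 genes inside the range were Myh1, Myh2, Neb, Ttn, Actn2, Tcap and Myot. Of these, Ttn (-0.35), Neb (-0.24) and Myot (-0.09) were only a little below the median, and Myh1 (0.50) was above it. All 4 energy genes and all 6 calcium genes were below the range of the other MD pools. The deviations of the 33 genes had an SD of 0.48 in MD00, and of 0.12 to 0.28 in the other 23 pools measured the same way.

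**Figure D3:**
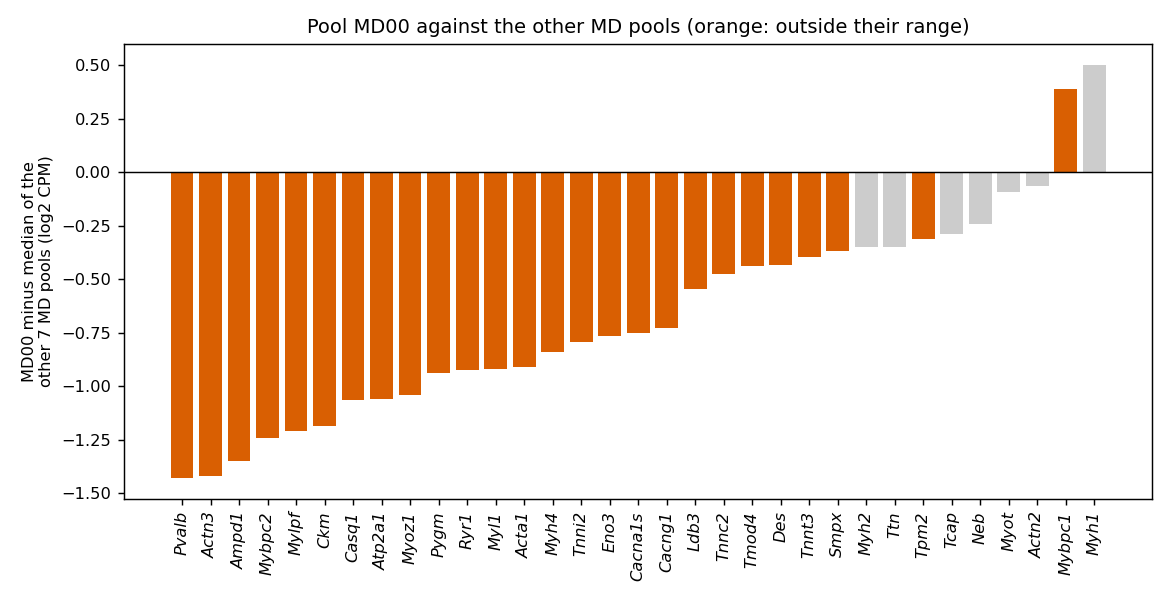
Level of each of the 33 genes in MD00 minus the median of the other 7 MD pools (y axis, log2 CPM). Orange bars are genes for which MD00 lies outside the range of the other MD pools, 25 below and 1 above, and grey bars are the 7 inside it.

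Other pools stood apart with the 33 genes moving together. ED20 was below all other ED pools for all 33 genes, at a median of -0.83, and EN08 below all other EN pools for 31, at -0.74. ED28 was above all other ED pools for 30 genes, at 0.86, and EN04 above all other EN pools for 24, at 0.60. The matching share of all genes tested was counted for MD00 only (21.4% below and 19.6% above). These 4 counts therefore have no background of their own. ED28, EN04 and EN00 are the 3 pools of code L6 and had the 3 highest summed shares outside MD. Each code holds 3 consecutive pools, so a difference between codes and one between pools cannot be told apart. Pools of the same group and clock time on successive days show the size of such swings. From MD00 to MD24 the median of the 33 genes was higher by 0.84, with 30 of 33 higher, and from ED04 to ED28 by 0.53, with 32 higher. From EN04 to EN28 it differed by -0.51 and from ED00 to ED24 by -0.39. In the pairs ED04 and ED28, EN04 and EN28, and EN00 and EN24, the pool of code L6 had the higher median. The pairs EN00 and EN24 (-0.25) and MD04 and MD28 (0.18) were closer. Over all genes tested, the median absolute difference in these 6 pairs was 0.14 to 0.26, and the swing of the 33 genes from MD00 to MD24 was of the size of their median difference between MD and ED.

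Across the 24 pools the levels of the 33 genes varied together, given here as a description since the pools share libraries and scaling. The median Pearson r over the 528 pairs of genes was 0.86, and within groups of 8 pools it was 0.92 in ED, 0.93 in EN and 0.73 in MD. Cacna1s followed the mean of the other 32 genes most closely (r = 0.98 over 24 pools), with Pygm, Acta1 and Tnnt3 next (0.98, 0.97 and 0.97). Mylpf (0.67), Tcap (0.69), Pvalb (0.74), Mybpc1 (0.77), Myh1 (0.775) and Myl1 (0.78) followed it least. Outside the 33, the 10 genes most like their mean over the 24 pools were Smyd1, Capn3, Pfkm, Tpm1, Adssl1, Cpt1b, Srl, Trim54, Tmem38a and Aldoa, with r from 0.96 to 0.97. Smyd1 is a muscle histone methyltransferase, Pfkm the muscle phosphofructokinase and Tpm1 alpha tropomyosin.

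**Figure D4:**
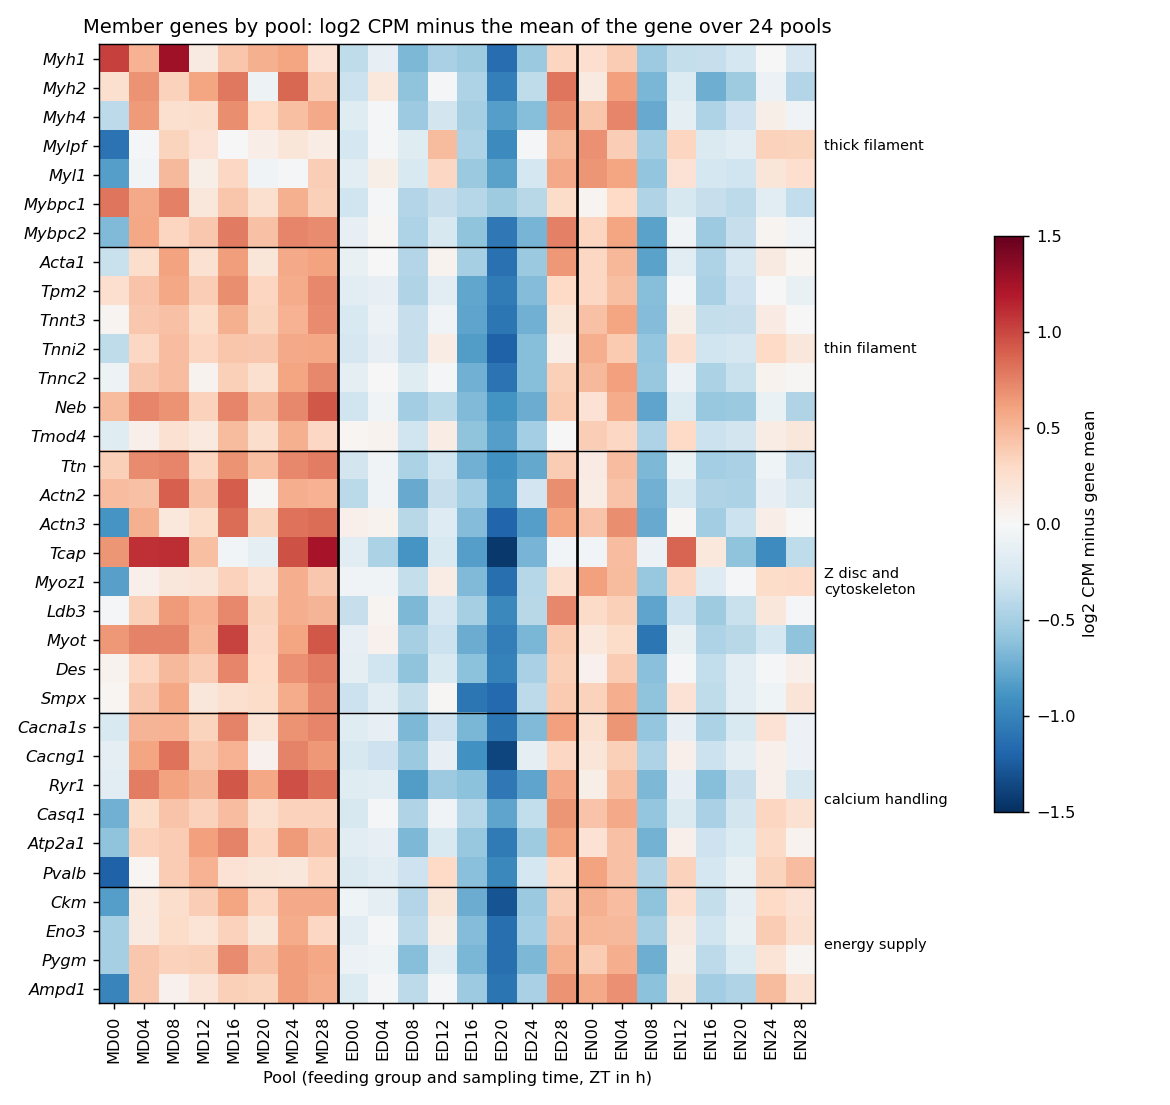
Level of each of the 33 genes (rows, grouped by role) in each of the 24 pools (columns, by feeding group and time), as log2 CPM minus the mean of the gene over the pools. Red is above the mean of the gene and blue below, the MD block is mostly red, columns such as ED20 and EN08 are blue throughout, and MD00 is mixed.

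A list of 40 other skeletal muscle genes showed the same direction: 33 were higher and 1 lower in MD than in ED, and 23 higher and 0 lower than in EN, at medians of 0.81 and 0.47. The list's summed level was 6309 to 8335 CPM in MD, 2578 to 6421 in ED and 3094 to 6346 in EN, and its mean log2 level had r = 0.99 with that of the 33 genes over 24 pools. The gene that was lower was Asph, named here after its value was seen. The 3 largest differences from ED were 1.54 (SE 0.30, adjusted p = 0.000216) in Lmod2, a leiomodin that lengthens thin filaments, 1.46 (SE 0.29, adjusted p = 0.000387) in Kbtbd5, now called Klhl40, a stabiliser of thin filament proteins, and 1.37 (SE 0.18, adjusted p = 1.57e-05) in Nrap, which helps assemble myofibrils. The mean log2 level of this list was also fitted as a covariate. By construction this takes out what the 33 genes share with other muscle genes, so a loss of calls does not bear on its cause. With this covariate, 0 of the 33 genes were higher in MD than in ED and 1 (Myl1) was lower, at -0.71 (adjusted p = 0.01). Calls over all genes tested fell in that fit as well, to 0.0763% higher and 0.617% lower against ED, and to 4.83% higher and 7.55% lower against EN. Against EN, 2 of the 33 were then higher, Myot at 0.44 (0.023) and Mybpc1 at 0.44 (0.03), and 7 were lower: Mylpf, Myl1, Myoz1, Ampd1, Pvalb, Ckm and Eno3, from -0.68 to -0.44. All 7 were lower in MD00 than in every other MD pool, as were most of the 33 genes. The part of that pool in these differences was not tested.

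Most slow fibre genes were lower in MD. Of 10 tested, 2 were higher and 6 lower in MD than in ED, and 1 higher and 6 lower than in EN. The higher genes were Myoz2, in both comparisons, and Casq2, against ED, named here after their values were seen. Myh7, the slow myosin heavy chain, was at 0.132, 0.341, 0.838, 8.85, 10.3, 1.87, 0.384 and 0.0491 CPM in MD. It was at 27.1, 18.9, 19.7, 30.7, 15.7, 20.01, 27.4 and 7.93 in ED and 15.5, 2.58, 27.1, 11.3, 21.6, 25.0, 16.3 and 11.03 in EN. MD12 and MD16 were above ED28 and EN04 and below the other ED and EN pools, and the other 6 MD pools were below all ED and EN pools. ED28 and EN04, the pools outside MD richest in fast genes, were the lowest of ED and EN. The log2 difference in Myh7 was -3.64 (SE 0.43, adjusted p = 4.31e-06) from ED and -3.21 (SE 0.43, adjusted p = 7.03e-06) from EN, and those of the slow light chain Myl2 and slow troponin Tnni1 were -2.86 and -2.42 from ED and -2.70 and -2.23 from EN. The mean level of the slow list had r = -0.55 with that of the fast genes over 24 pools, and -0.11, 0.21 and -0.68 within ED, MD and EN. In MD00 Myh7 was at 0.132 CPM and Myl2 at 0.

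Markers of some other cells in the skin also differed between the groups, and their part in the result was not tested. Over all 15719 genes tested, 11.2% were higher and 11.8% lower in MD than in ED, and 14.4% and 15.9% against EN. These shares apply to the counts of every list. Counts of 0 or 1 per direction in the endothelial, nerve, erythroid, hair follicle and differentiated keratinocyte lists are near these shares or below. They are not read as a result about those cells. Of 8 fibroblast genes, 0 were higher and 5 lower in MD than in ED, and 0 higher and 6 lower than in EN, with summed levels of 28124 to 45538 CPM in MD, 43795 to 69503 in ED and 40965 to 74679 in EN (Col1a1 -0.80 and -0.90, Lum -0.72 and -0.84, Col3a1 -0.65 and -0.69). Of 8 adipocyte genes, 0 were higher and 7 lower in MD than in ED, and 0 higher and 7 lower than in EN, at 1349 to 2161, 2175 to 3077 and 2161 to 3817 CPM (Lep -0.98 and -1.08, Adipoq -0.97 and -1.07, Cfd -0.96 and -1.07). Of 6 macrophage genes, 0 were higher and 3 lower in MD than in ED, and 0 higher and 3 lower than in EN (Emr1 -0.54 and -0.50, Lyz2 -0.48 and -0.55, and C1qa -0.56 from EN, while its -0.36 from ED did not pass). Of 8 smooth muscle genes, 4 were higher and 0 lower in MD than in ED, and 6 higher and 0 lower than in EN (Lmod1 0.73 and 0.65, Synpo2 0.62 and 0.64, and Myh11 0.33 from EN, while its 0.22 from ED did not pass). Smaller differences were seen in 7 basal keratinocyte genes, 3 were higher and 0 lower in MD than in ED, and 4 higher and 0 lower than in EN (Itgb4 0.30 and 0.44, Col17a1 0.29 and 0.35, Trp63 0.26 and 0.33), and in 7 differentiated keratinocyte genes, 1 were higher and 1 lower in MD than in ED, and 1 higher and 1 lower than in EN (Flg 0.43 and Lor -0.36 from ED). Of 6 endothelial genes, 1 were higher and 0 lower in MD than in ED, and 1 higher and 1 lower than in EN (Pecam1 higher and Egfl7 lower). Of 6 nerve genes, 1 were higher and 0 lower in MD than in ED, and 0 higher and 0 lower than in EN (Mbp), of 3 erythroid genes, 0 were higher and 0 lower in MD than in ED, and 1 higher and 0 lower than in EN (Hba-a2), and of 4 hair follicle genes, 0 were higher and 0 lower in MD than in ED, and 0 higher and 0 lower than in EN.

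Genes that control muscle growth and wasting were also tested. Of 9 myogenic factors tested, 8 were higher and 0 lower in MD than in ED, and 8 higher and 0 lower than in EN, with Myod1 and Myog, which drive muscle differentiation, and Pax7 of satellite cells at 1.24, 1.31 and 1.57 from ED. Their levels were low and overlapped. Myod1 ran 3.46 to 12.4 CPM in MD and 1.39 to 12.9 in ED, and Myog 2.58 to 5.46 and 0.83 to 4.08. Pax7 was near the floor, at 0.49 to 2.07 in MD and 0 to 0.99 in ED. Of 6 atrophy genes, 5 were higher and 0 lower in MD than in ED, and 2 higher and 0 lower than in EN. Trim63, a ubiquitin ligase of muscle wasting also called MuRF1, was at 46.5, 76.2, 44.7, 42.2, 236, 49.0, 72.9 and 68.1 CPM in MD, where MD16 stood far above the rest, against 15.6 to 68.1 in ED. In EN it was at 18.5 to 72.0. Its difference from ED was 1.38 (SE 0.41, adjusted p = 0.0042), and those of Mstn, myostatin, and Fbxo32, another ligase, were 1.18 (SE 0.27, adjusted p = 0.0016) and 0.60 (SE 0.26, adjusted p = 0.028). Against EN none of these 3 passed: Trim63 differed by 0.76 (SE 0.41, adjusted p = 0.055), Mstn by 0.48 (SE 0.27, adjusted p = 0.19) and Fbxo32 by 0.42 (SE 0.26, adjusted p = 0.096). The 2 genes higher than in EN were Foxo1 and Foxo3, named here after their values were seen. Of 5 developmental or denervation genes, 2 were higher and 0 lower in MD than in ED, and 3 higher and 0 lower than in EN, with the perinatal myosin Myh8 at 1.28 from ED and 0.84 from EN, the embryonic myosin Myh3 at 0.70, which did not pass, and 0.86, and the receptor subunit Chrna1 at 0.64 and 0.43. Myh3 was near the floor, at 0.29 to 1.71 CPM in MD, 0.16 to 0.91 in ED and 0.075 to 0.86 in EN. Myh8 ran 3.98 to 8.10 in MD, 1.75 to 5.37 in ED and 2.03 to 5.84 in EN. Chrna1 ran 2.91 to 4.77, 2.06 to 4.14 and 2.11 to 4.61, so the groups overlapped for each of these genes. Between EN and ED, none of the genes of the 15 lists passed with edgeR, and 6 genes of all 15719 passed with DESeq2.

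Intron rows, which count reads in introns and so include unspliced transcripts, were fitted on their own table of 14585 rows. Of the 33 genes, 23 were higher in MD than in ED and 0 lower (background 8.49% higher and 6.99% lower), and 16 were higher than in EN and 0 lower (8.1% and 6.61%). Between EN and ED 0 passed with edgeR, and 3 had an unadjusted p under 0.05, against 4.08% of all intron rows tested. Without MD16, EN08 or the second day the count against EN was 11. Calls over all intron rows in these fits are not given here. For Ttn the intron difference was 0.97 from ED against 1.01 in exon rows, for Ryr1 1.12 against 1.16, and for Myh1 0.93 against 1.06. Tcap, whose introns held 437 reads over all pools, had 0.03 (SE 0.34) in intron rows against 1.20 in exon rows, and Acta1 0.33 (SE 0.25) against 0.66. Antisense reads were at most 3.33% of the exon reads of any of the 33 genes over all pools.

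Among these genes, the differences between MD and the other groups were larger for longer genes. Across the 33 genes, the difference from ED had r = 0.47 with the log10 of merged exon length, and the difference from EN r = 0.61, given as descriptions since genes of the same pools are not independent. Over all 13865 tested genes with an annotated length the same values were 0.32 and 0.42. Among the 33 genes, leaving out Ttn and Neb gave r = 0.42 from ED and 0.58 from EN. The 11 longest of the 33 genes (3754 to 116825 bases of exon) had median differences of 0.90 from ED and 0.77 from EN. For the middle 11 (1951 to 3611 bases) these were 0.79 and 0.48, and for the 11 shortest (800 to 1892 bases) 0.66 and 0.34. Between EN and ED the sign was the other way, r = -0.37 in the 33 genes and -0.26 over all genes. The labels give only a lower limit of RNA integrity (a number above 6.5) and no value per pool, so the part of RNA quality in this was not tested.

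**Figure D5:**
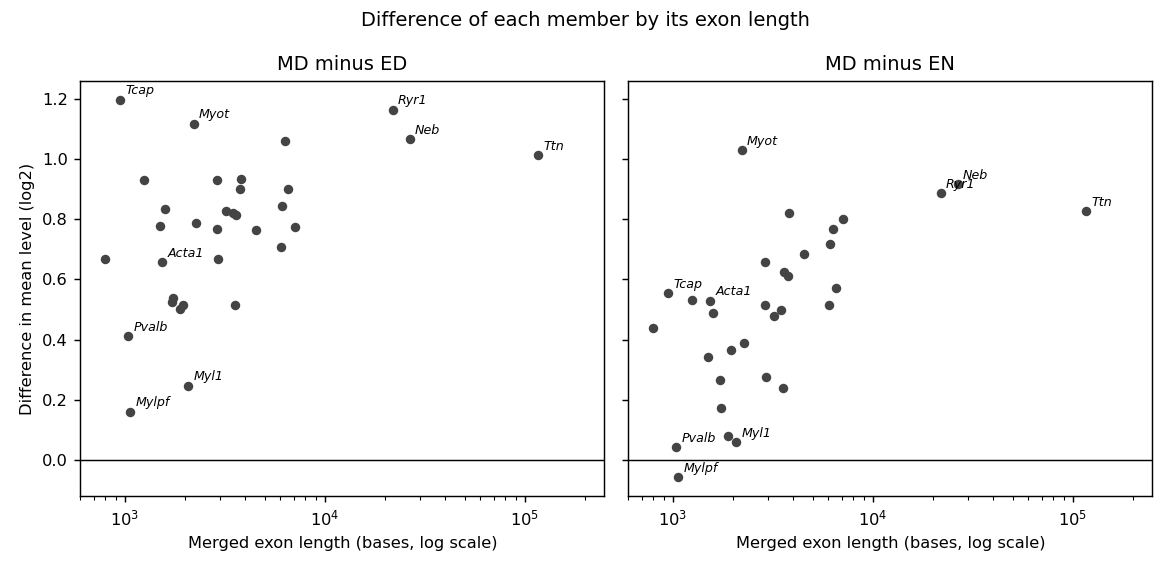
Difference in mean level (y axis, log2) of each of the 33 genes against its merged exon length in bases (x axis, log scale), for MD minus ED and MD minus EN. In the right panel the giant genes Ttn, Neb and Ryr1 lie between 0.83 and 0.92, and the short genes Mylpf, Pvalb and Myl1 lie near 0.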

How the data were processed

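Total RNA of whole back skin was sequenced as stranded libraries from pools of 2 to 4 animals, per the labels. The deposited table holds read counts per exon, intron and antisense feature made by the authors, and the submitters' processing notes name TopHat2, SAMtools, HOMER and build mm10, without versions or order. The sources used here do not give the counting program. The authors also deposited RPKM values made with cqn, used here for levels per length and in limma.

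Exon counts were fitted with edgeR 4.0.16 (R 4.3.3): TMM scaling, filterByExpr by feeding group (minimum count 10, minimum total 15), and a quasi-likelihood model with a mean, a cosine and a sine of 24 h for each group over all 24 pools (15 residual degrees of freedom). Differences and standard errors are least-squares estimates on log2 CPM with a prior count of 2. P-values were adjusted by Benjamini-Hochberg over 15719 genes at 0.05. Alternatives were DESeq2 1.42.0, limma 3.58.1 on log2(RPKM + 0.1), other scalings and filters, each pool or the second day left out, sampling time as a block, and a muscle covariate. Leaving out MD00, ED28 and EN04, or ED24 and EN00, was added after seeing the data. On simulated counts for MD minus ED over 15651 genes, the fit recovered 83 of 100 genes changed by 0.7 on the log2 scale. It recovered 96 of 100 genes changed by 1, and called 9 unchanged genes. The fast muscle genes varied together across the 24 pools, at a median r of 0.86 over pairs of genes. A swing of pools shared by such genes was not tested, so these counts do not give their rate of false calls. Figures were drawn with matplotlib 3.10.9 and exact tests were enumerated in Python 3.11.15. Gene positions are GENCODE vM21 on the GRCm38 sequence, which is mm10.

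The members and lists were chosen with earlier results of these data known. Values in every pool are given for 10 genes chosen by role (Acta1, Ckm, Myh4, Myh1, Myh2, Ttn, Atp2a1, Pvalb, Mybpc1 and Des). For the 10 other members with the smallest p, the rule asked for every pool, and the lowest, median and highest are given instead, with every pool for Tcap. Of each other list, up to 3 genes called with the largest change are named, and the 10 genes most like the mean of the members.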

Additional observations from a re-analysis of the deposited data

Results flagged for a closer look

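Of 111 tests of a gene, a myosin share or the summed share in the 8 pools of a feeding group, 16 found a pool far from the other pools, where chance gives about 1 in 20. All 16 were for MD00, and in each it was the lowest MD pool by a gap of over 0.526 of the range of the group. Its levels in log2 CPM were, for thick filament genes, 11.91 for Myh4, 8.97 for Mylpf, 8.80 for Myl1 and 8.49 for Mybpc2. For thin filament and Z disc genes they were 11.27 for Acta1, 9.32 for Tnni2, 8.23 for Actn3 and 6.83 for Myoz1. For calcium genes they were 9.59 for Ryr1, 7.285 for Casq1, 10.73 for Atp2a1 and 8.57 for Pvalb, and for energy genes 10.20 for Ckm, 8.525 for Eno3, 8.76 for Pygm and 5.29 for Ampd1. The widest gap relative to the range was that of Casq1, whose next MD pool was at 8.24. The genes share this pool, so the 16 are not independent. Without MD00, 31 genes were higher in MD than in ED and 25 higher than in EN.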

How the results depend on the processing

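The count of 29 genes higher in MD than in ED stayed within 22 to 31 with each pool left out in turn, and within 24 to 31 under the other alternatives, apart from the covariate. The count of 19 against EN ran from 11 (without MD16) to 26 (without EN12) with 1 pool left out, and was 11 without the second day and 24 with scaling by total counts only. Over all genes tested, 1595 of 15757 were higher than in EN without the second day and 2953 of 15719 with total counts only, against 2256 of 15719 in the main fit. For the fits without 1 pool, calls over all genes are not given here. With the level of the other skeletal muscle list as a covariate, 0 genes were higher and 1 lower against ED, and 2 were higher and 7 lower against EN. In that fit the sign turned for 21 genes against ED: Mylpf -0.75, Myl1 -0.71, Ampd1 -0.68, Actn3 -0.53, Pvalb -0.49, Myoz1 -0.48, Ckm -0.45, Acta1 -0.39, Casq1 -0.38, Mybpc2 -0.37, Eno3 -0.36, Myh4 -0.34, Pygm -0.28, Atp2a1 -0.24, Myh2 -0.23, Tmod4 -0.16, Tnnc2 -0.15, Cacna1s -0.13, Tnni2 -0.070, Smpx -0.027 and Ldb3 -0.023. Against EN it turned for 21: Myl1 -0.60, Myoz1 -0.60, Ampd1 -0.59, Pvalb -0.58, Ckm -0.49, Eno3 -0.44, Actn3 -0.38, Pygm -0.29, Casq1 -0.25, Tnni2 -0.24, Atp2a1 -0.23, Tmod4 -0.21, Myh4 -0.21, Mybpc2 -0.20, Acta1 -0.19, Smpx -0.18, Cacna1s -0.14, Tnnc2 -0.13, Tnnt3 -0.078, Tcap -0.062 and Cacng1 -0.044. The covariate takes out what the 33 genes share with other muscle genes by construction. Between MD and EN, the small differences of light chain, Z disc and parvalbumin genes changed sign elsewhere too. Without the second day they were -0.058 for Myl1, -0.068 for Myoz1 and -0.071 for Pvalb, and with feeding group only -0.055, -0.0029 and -0.093. Mylpf was 0.15 with limma on log2(RPKM + 0.1) and 0.064 without MD00, ED28 and EN04. With 1 pool left out, the ranges against EN were -0.18 to 0.12 for Mylpf, -0.080 to 0.23 for Myl1, -0.052 to 0.25 for Myoz1 and -0.085 to 0.22 for Pvalb. The cause of these changes was not tested.

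With sampling time as a replicate block, 27 genes were higher against ED, 16 against EN and 0 between EN and ED, and 8 intron rows were higher against EN. Of all 15719 genes tested, 1480 were higher against ED and 2089 against EN in exon rows. In that block fit Myl1, Myoz1 and Pvalb were at -0.055, -0.0029 and -0.093 against EN. Pools of the same time showed little shared deviation. The correlation of their deviations from the group means had a median of 0.04 in MD and ED, 0.10 in MD and EN and 0.04 in EN and ED. It exceeded 0.1 at 2, 4 and 3 of 8 times. A pool correlated best with its own time at 1, 1 and 2 of 8 times. Such weak correlations do not show that sampling time had no part.

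For rhythms, DESeq2 called 2 of the 33 genes in ED, against 388 of all 15109 genes with an adjusted p. Without a low-count filter 1 of the 33 was called in MD, against 237 of all 22049. With the covariate, 1 gene was called in MD, 1 in EN, 1 for a different rhythm between MD and EN and 1 between EN and ED. Over all 15719 genes tested, that fit called 227, 214, 86 and 131, against 148, 166, 55 and 63 in the main fit. The EN minus ED median was -0.038 within code L6. With 1 sampling time left out, the difference in the Myh2 share between MD and ED ran from -0.15 to 0.12 percentage points, and that of the Myh4 share between EN and ED from -0.58 to 0.27. All 33 genes passed the low-count filter, and with 1 pool per group and time the spread between pools sets the error.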
